A study of Mus musculus with 7 samples.

Results

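The TNF and NF-kappaB family was described in microglia sorted from inside and outside neuronal grafts. The family was chosen by gene name and comprised 10 of the 55341 gene names in the counts table, namely the ligand Tnf, its receptors Tnfrsf1a and Tnfrsf1b, the NF-kappaB subunits Rela, Nfkb1, Rel, Nfkb2 and Relb, and the regulators Tnfaip3 and Bcl3. All hosts were 5xFAD mice, a transgenic model of amyloid deposition driven by the neuronal Thy1 promoter, and the labels give an age of 14 weeks. Embryonic neuronal cells of wild-type (WT) mice had been injected into the host neocortex, and tissue was taken 4 weeks after injection. The 3 libraries from inside the graft came from the dissected WT graft, and the 4 libraries from outside the graft came from small pieces of cortex near the transplant in 5xFAD hosts. Both groups therefore share the 5xFAD host and the injection, and no library of an uninjected or a WT host was analysed here. Cells were sorted as CD11b+CD45low microglia into lysis buffer, after a stain that, by the methods of the study, also held antibodies to lineage markers, among them Ly6C and Ly6G. The sources used here do not say which libraries came from the same mouse or whether mice were pooled, so P values measure the spread between these libraries, which may in part be technical.

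TNF is a cytokine that macrophages and microglia make early in inflammation. It is shed from the cell surface by the protease ADAM17 and binds TNFR1 (Tnfrsf1a), which can lead to NF-kappaB activation or to cell death, and TNFR2 (Tnfrsf1b), which lacks a death domain. NF-kappaB is a set of dimers of 5 related subunits that are held in the cytoplasm by IkB proteins until the IKK kinases mark these for destruction. The canonical branch mainly frees dimers of RELA or c-REL with p50, which is cut from the Nfkb1 product p105, whereas the non-canonical branch runs through the kinase NIK (Map3k14) and processes the Nfkb2 product p100 to p52, the partner of RELB. A20 (Tnfaip3) is a ubiquitin-editing enzyme that switches the canonical branch off, and BCL3 is a nuclear IkB protein that binds p50 and p52. Much of the activity of these proteins is set by modification and movement rather than by transcript level, and only transcripts were measured here.

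Total counts ran from 23241114 to 25882122 in the inside libraries and from 18644807 to 24599193 in the outside libraries. Outside graft 1 had the smallest total and stood apart from the other libraries: on the leading principal component of log2 CPM it was at 117 (counts scaled per 1000000 of a library), a component with 37.2% of the variance, whereas the other outside libraries lay between 5.34 and 17.5. Inside grafts 1 to 3 were at -50, -27.7 and -69.8, so the groups did not overlap on this component. All 8 microglial markers of the list used here were detected and tested, and their summed level was 34258.7 to 39669.4 CPM inside and 40394.0 to 42981.4 CPM outside the graft, with 5 of the 8 lower inside at an unadjusted P below 0.05, where 3.79% of all tested genes were, and none past the adjusted threshold (edgeR). Other leukocyte transcripts were also found in the sorted cells. The 7 neutrophil markers summed to 4467.9, 466.7 and 9699.6 CPM in inside grafts 1 to 3 and to 0.64, 0.311, 202.7 and 18.3 CPM in outside grafts 1 to 4. The 8 monocyte markers summed to 662.4, 91.3 and 1383.7 CPM inside and to between 17.4 and 32.6 CPM outside, and the 9 markers of border-associated macrophages to 117.2, 18.2 and 121.9 CPM inside and to between 6.32 and 17.9 CPM outside. Inside graft 2 was thus the inside library with the lowest level of all 3 lists. The neutrophil sums rest mostly on S100a8, S100a9 and Camp, and the inside monocyte sums mostly on Chil3. The edgeR log2 fold change was above 0 for 6 of 6 tested neutrophil markers and 6 of 7 tested monocyte markers. Retnlg overlapped between the groups, and Mmp8, too low to test, was highest in outside graft 3 (6.72 CPM). Ccr2 was at 4.26 CPM in inside graft 2, within the outside range of 4.06 to 18.1 CPM. The 8 markers of T and NK cells summed to at most 12 CPM inside and 0.764 CPM outside, with Cd3d and Gzmb at 0 in all libraries, and the 12 immediate early genes that dissociation can induce summed to between 576.6 and 681.6 CPM inside and between 577.4 and 694.4 CPM outside. These sums rest mostly on Jun, Junb and Btg2. Of the 11 immediate early genes tested, 4 (Atf3, Ier2, Hspa1a and Hspa1b) were higher and 0 lower inside at an unadjusted P below 0.05, where 5.76% and 3.79% of all tested genes were, none passed the adjusted threshold in edgeR, and the median log2 fold change was 0.72.

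**Figure D1:**
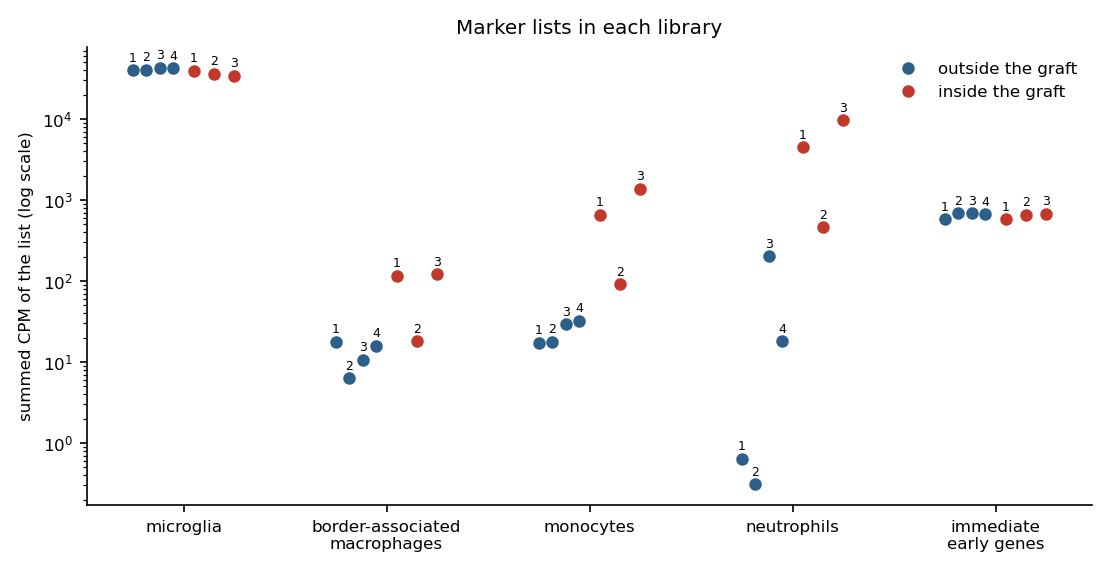
Summed CPM, on a log scale, of 5 marker lists in each library, with outside libraries in blue, inside libraries in red and the replicate number above each point. The microglial sum lay between 34258.7 and 42981.4 CPM, whereas the neutrophil sum ran from 466.7 to 9699.6 CPM inside and from 0.311 to 202.7 CPM outside the graft.

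All 10 family genes were expressed highly enough to be tested. In the comparison of inside with outside the graft, no family gene passed an adjusted P below 0.05 in edgeR, where 15 of 15257 tested genes did (0.0983%), all of them higher inside. The voomWithQualityWeights test of limma, which was the study's method, also called no family gene at this threshold, where it called 0.492% of all genes. The family genes with the lowest P values encode the non-canonical pair. Nfkb2 (1.44-fold) and Relb (1.51-fold) had higher mean levels inside the graft at unadjusted P values of 0.00619 and 0.0341 (edgeR, adjusted P = 0.232 and 0.459). This is 2 of 10 family genes below an unadjusted P of 0.05, where 9.55% of all tested genes were, and the voomWithQualityWeights test placed 4 of 10 there against 12.2% of all genes. Tnf, Nfkb2 and Relb were the higher ones (7.47% of all genes) and Nfkb1 the lower one (4.71%). The receptors, Rela, Nfkb1 and Rel had fold changes between 0.868 and 1.04. For 7 of 10 genes, the exceptions being Tnf, Relb and Bcl3, the 95% confidence interval of the edgeR log2 fold change lay wholly between -1 and 1, so that a change of 2-fold or more in either direction was outside it. This held for 55.1% of all tested genes and, among the 8917 whose mean reached 10 CPM, for 88.9%. That level was reached by 8 family genes, including these 7. In bulk samples such as these, fewer cells of a type and less RNA per cell cannot be told apart.

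**Figure D2:**
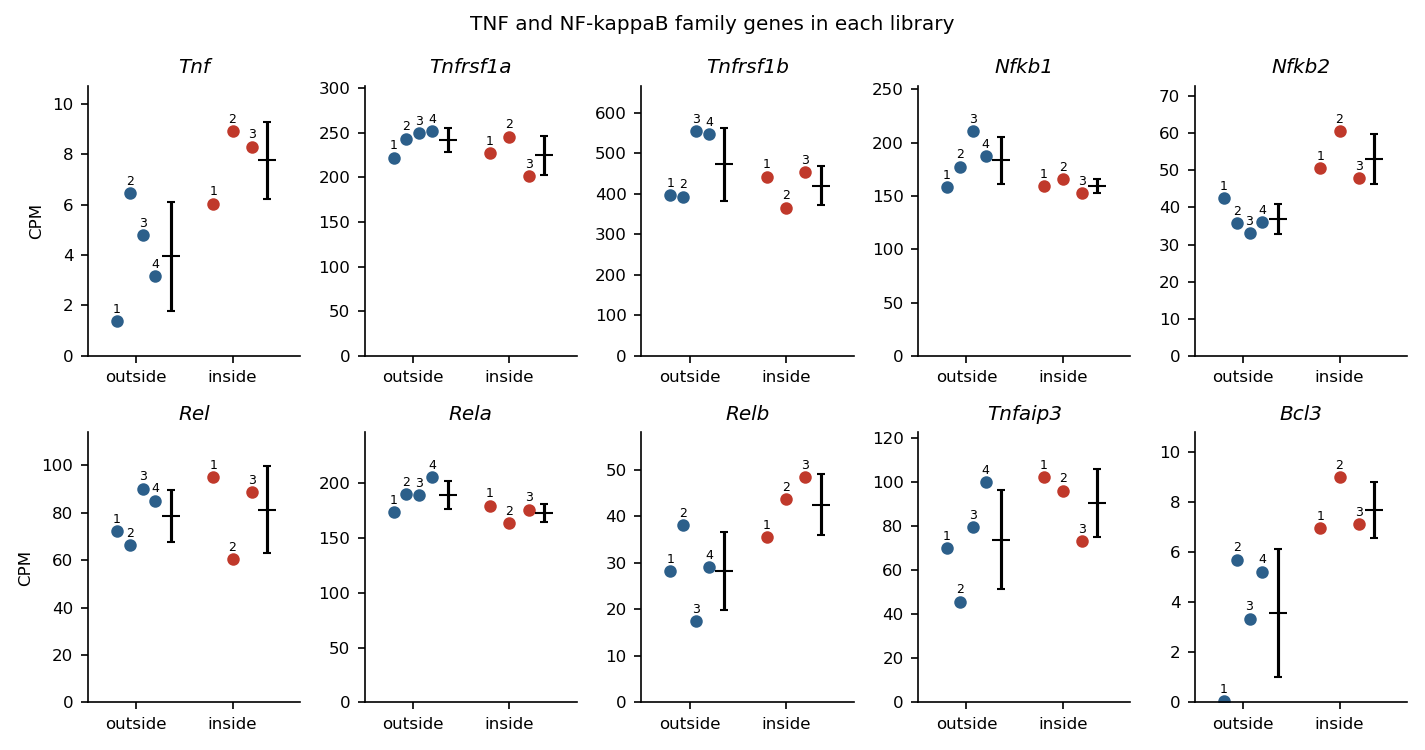
CPM of the 10 family genes in each library, with outside libraries in blue, inside libraries in red, the replicate number above each point, and the mean with SD as a black bar (n = 4 outside and n = 3 inside). For Nfkb2 and Bcl3 every inside point lies above every outside point, as for 5.65% of all tested genes, and for the other 8 genes the groups overlap.

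Tnf (ENSMUSG00000024401.14, minus strand of chr17:35199381-35202007 in GRCm38.p6) was detected in every library at a low level. It reached 6.04, 8.92 and 8.30 CPM in inside grafts 1 to 3 and 1.39, 6.45, 4.79 and 3.16 CPM in outside grafts 1 to 4, from counts of 26 to 201. The groups overlapped, since outside graft 2 lay above inside graft 1. The mean was 7.75 ± 1.51 CPM inside (SD, n = 3) and 3.95 ± 2.17 CPM outside (SD, n = 4), and the edgeR log2 fold change was 0.97 ± 0.48 (SE) with an adjusted P of 0.572. Its 95% interval ran from -0.0988 to 2.04, so both no change and a 4-fold increase lay within it. Without outside graft 1, the lowest library, the log2 fold change was 0.69 ± 0.36 (edgeR, adjusted P = 0.579). Over the 7 libraries, the genes whose log2 CPM was most like that of Tnf were Gemin5 (Pearson r = 0.991), Gm20616 (r = 0.986) and Gm10390 (r = 0.984), a description that rests on 7 points, outside graft 1 among them.

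TNFR1 and TNFR2 transcripts were the most abundant of the family. Tnfrsf1a (ENSMUSG00000030341.17, plus strand of chr6:125349362-125362484) was at 227.3, 245.5 and 201.2 CPM inside and at 222.2, 243.4, 249.3 and 252.0 CPM outside the graft. All 7 values lay close together, and the groups overlapped (log2 fold change -0.11 ± 0.11 SE, edgeR adjusted P = 0.849). Tnfrsf1b (ENSMUSG00000028599.10, minus strand of chr4:145213463-145246870), the receptor that in the brain is expressed mainly by microglia, was at 442.4, 366.2 and 453.0 CPM inside and at 396.6, 393.6, 555.5 and 547.2 CPM outside. Here the outside libraries fell into a lower and a higher pair, with the inside libraries below or between them (log2 fold change -0.17 ± 0.16 SE, edgeR adjusted P = 0.823). Per kilobase of exon, the ratio of Tnfrsf1b to Tnfrsf1a was 1.32, 1.01 and 1.53 inside and 1.21, 1.10, 1.51 and 1.47 outside. The mean log2 ratios were 0.344 and 0.392, and their difference of -0.048 was smaller than the SD between libraries in either group (exact two-sided permutation test over 35 splits, P = 0.914, adjusted over 2 ratios P = 0.914). The sign of this difference turned when inside graft 2 (0.11), outside graft 3 (0.02) or outside graft 4 (0.0079) was left out.

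The 3 subunits Rela, Nfkb1 and Rel, which act mainly in the canonical branch, had edgeR fold changes between 0.868 and 1.04. Rela (ENSMUSG00000024927.8, plus strand of chr19:5637483-5648130), which encodes the main transactivating subunit, was at 179.5, 163.9 and 175.8 CPM inside and at 173.7, 190.0, 189.1 and 205.3 CPM outside. Its groups overlapped through outside graft 1 (log2 fold change -0.13 ± 0.10 SE, edgeR adjusted P = 0.784). Nfkb1 (ENSMUSG00000028163.17, minus strand of chr3:135584655-135691547) was at 159.4, 165.9 and 152.5 CPM inside and at 158.2, 177.3, 210.9 and 187.0 CPM outside. Apart from outside graft 1, the outside libraries lay above all inside libraries, and the log2 fold change was -0.20 ± 0.12 (SE) with an adjusted P of 0.665 in edgeR and -0.26 with an adjusted P of 0.379 in voomWithQualityWeights, which gave outside graft 1 the lowest weight. Rel (ENSMUSG00000020275.9, minus strand of chr11:23736847-23770970), which encodes c-REL, was at 94.8, 60.4 and 88.7 CPM inside and at 72.3, 66.3, 90.1 and 85.0 CPM outside. The highest and the lowest of these values were both from inside the graft, and the edgeR log2 fold change of 0.052 ± 0.18 (SE, adjusted P = 0.968) became -0.02 in voomWithQualityWeights. The genes most like Nfkb1 in log2 CPM over the 7 libraries were Irf5 (Pearson r = 0.978), Stk40 (r = 0.973) and Sh2b2 (r = 0.971).

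The subunits of the non-canonical branch were higher on average inside the graft, without passing the test. Nfkb2 (ENSMUSG00000025225.15, plus strand of chr19:46304320-46312385), which encodes p100 and its product p52, was at 50.6, 60.6 and 47.9 CPM inside and at 42.5, 35.8, 33.0 and 36 CPM outside the graft. The lowest inside value exceeded the highest outside value, which was so for 2 of the 10 family genes (Nfkb2 and Bcl3) and for 5.65% of all tested genes. The reverse was seen for no family gene and for 5.02% of all genes. The mean was 53.0 ± 6.66 CPM inside (SD, n = 3) and 36.8 ± 4.02 CPM outside (SD, n = 4), and the log2 fold change was 0.53 ± 0.15 (SE) with a 95% interval from 0.187 to 0.867. The adjusted P was 0.232 in edgeR and 0.104 in voomWithQualityWeights, whereas DESeq2 called the gene with an adjusted P of 0.043. In simulated data DESeq2 called more unchanged genes than edgeR, with means of 47.2 and 6.8 per set. Over all alternatives the adjusted P of Nfkb2 ran from 0.043 to 0.513. Without outside graft 1 the log2 fold change was 0.60 ± 0.15 (SE, edgeR adjusted P = 0.149).

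Relb (ENSMUSG00000002983.17, minus strand of chr7:19606217-19629438) was at 35.5, 43.6 and 48.3 CPM inside and at 28.2, 38.0, 17.5 and 29.0 CPM outside the graft. The groups overlapped, since outside graft 2 lay above inside graft 1. The mean was 42.5 ± 6.47 CPM inside (SD, n = 3) and 28.2 ± 8.36 CPM outside (SD, n = 4), with a log2 fold change of 0.59 ± 0.24 (SE) and an adjusted P of 0.459 in edgeR and of 0.71 and 0.265 in voomWithQualityWeights. The value was 0.42 ± 0.20 (SE) without outside graft 3, the lowest library.

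Nfkb2 shares exon bases with 2 genes on the opposite strand, and strand was not used in the counting, so reads there cannot be assigned by strand. It shares 531 bases with the lncRNA AC114539.1, which had counts of 251 to 314 inside and 262 to 423 outside the graft, and 299 bases with Psd, with counts of 32 to 65 inside and 19 to 89 outside. Reads that touched both genes went to the gene with the larger overlap. The counts of Nfkb2 itself were 1138 to 1365 inside and 796 to 890 outside.

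**Figure D3:**
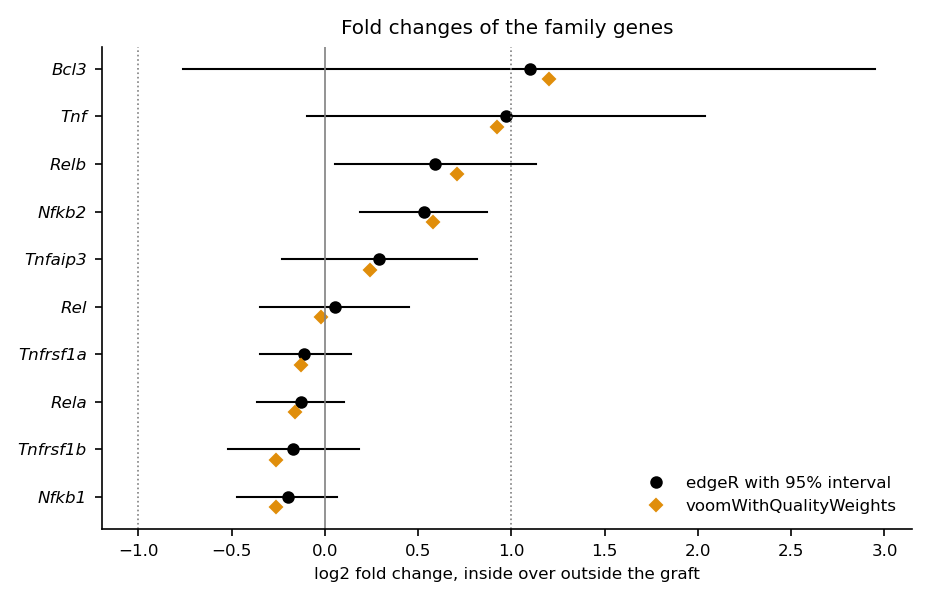
Log2 fold change of each family gene, inside over outside the graft, from edgeR (black circles with 95% intervals) and from voomWithQualityWeights (orange diamonds), with dotted lines at a 2-fold difference in either direction. The intervals of Nfkb2 (0.187 to 0.867) and Relb (0.0542 to 1.13) lie above 0 before adjustment, and those of the other 8 genes cross it.

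Among each other, the 5 subunits kept the same leading member in every library. Per kilobase of exon, Rela made up 55.9%, 53.5% and 54.7% of the summed subunit transcripts inside the graft and 59.0%, 60.0%, 59.9% and 61.3% outside. Rela was the largest share in all 7 libraries, and every inside share lay below every outside share. The share of Nfkb2 was 10.6%, 13.3% and 9.99% inside and 9.66%, 7.58%, 6.99% and 7.21% outside, and that of Relb was 8.75%, 11.3% and 11.9% inside and 7.58%, 9.49%, 4.39% and 6.84% outside. The size of the shares depended on the length used. With principal transcript lengths, Rela made up 44.1%, 40.8% and 42.9% inside and 46.2%, 46.5%, 46.0% and 48.1% outside. Rela was still the largest share, and Nfkb1 made up 24.6% to 33.9% instead of 12.1% to 17.0%. The ratio of the non-canonical pair (Relb plus Nfkb2) to the canonical pair (Rela plus Nfkb1), each per kilobase of exon, was 0.282, 0.364 and 0.328 inside and 0.237, 0.230, 0.148 and 0.186 outside. The groups did not overlap. The geometric means were 0.323 and 0.197, a 1.64-fold difference or 0.71 on the log2 scale, beside SDs of 0.186 (n = 3) and 0.315 (n = 4). The exact two-sided permutation test gave P = 0.0571, which is the smallest value that 3 against 4 libraries allow, and 0.114 when adjusted over the 2 ratios tested, so the difference could not have passed 0.05. With each library left out, it lay between 0.58 and 0.81.

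**Figure D4:**
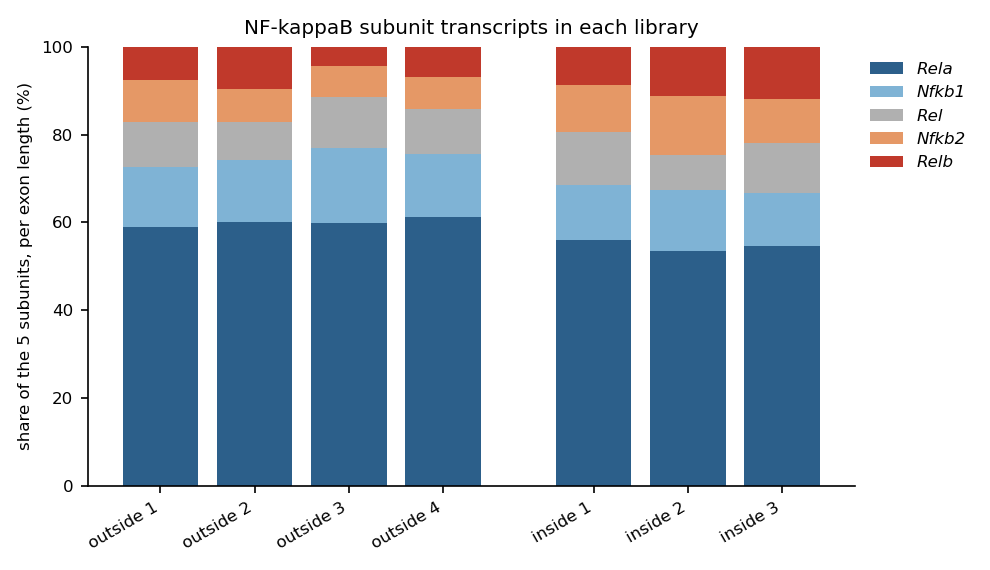
Share of each of the 5 NF-kappaB subunit genes in their summed level per kilobase of merged exons, in percent, for each library. Rela holds between 53.5% and 61.3% of every bar, and the combined share of Nfkb2 and Relb at the top is larger in each inside library than in each outside library. With principal transcript lengths, which are not drawn, the share of Rela was 40.8% to 48.1%.

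The other cell types in the sort were set beside these values. In inside graft 2, where the neutrophil, monocyte and border-associated macrophage markers were lowest among the inside libraries, Tnf (8.92 CPM), Nfkb2 (60.6 CPM) and Bcl3 (8.97 CPM) were each at their highest level of all 7 libraries, and the ratio of the non-canonical to the canonical pair (0.364) was too. Relb, in contrast, was highest in inside graft 3 (48.3 CPM), the library with the highest marker sums. The neutrophil sum of outside graft 3 was the highest of its group (202.7 CPM), and Nfkb2 (33.0 CPM) and Relb (17.5 CPM) were at their lowest there. The part of these cells in the values of the family genes was not tested.

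Relative to their means, the regulators A20 and BCL3 varied more between the outside libraries than the receptors and canonical subunits. Inside the graft, Rel (81.3 ± 18.4 CPM) varied more than Tnfaip3 (90.3 ± 15.2 CPM) and Bcl3 (7.68 ± 1.12 CPM, SD, n = 3). Tnfaip3 (ENSMUSG00000019850.11, minus strand of chr10:19000910-19015657) was at 101.9, 95.9 and 73.0 CPM inside and at 69.9, 45.6, 79.4 and 99.8 CPM outside the graft. The groups overlapped, with outside grafts 1 and 2 below all inside libraries and the other outside libraries within the inside range (log2 fold change 0.29 ± 0.23 SE, edgeR adjusted P = 0.784). Bcl3 (ENSMUSG00000053175.17, minus strand of chr7:19808462-19822770) was at 6.95, 8.97 and 7.12 CPM inside and at 0.0534, 5.69, 3.34 and 5.22 CPM outside. The groups did not overlap, but 1 count stood behind the value of outside graft 1, against 83 to 202 counts in the other libraries. The log2 fold change of 1.10 ± 0.83 (SE, edgeR adjusted P = 0.766) had a 95% interval from -0.761 to 2.95, and without outside graft 1 it was 0.69 ± 0.33 (SE, adjusted P = 0.536). The value was larger in limma-voom without weights, at 1.93 (adjusted P = 0.511), and reached 1.41 without outside graft 2 (edgeR adjusted P = 0.700).

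Levels were compared between genes per kilobase of merged exon length. The mean over the 7 libraries was highest for Tnfrsf1b at 118.0 CPM per kilobase, followed by Tnfrsf1a at 90.5, Rela at 59.4 and Nfkb1 at 14.3, and this order held in 7 of 7 libraries for each step. Tnfaip3 (11.2), Rel (10.7), Nfkb2 (9.55) and Relb (8.83) came next and could not be put in a firm order: Tnfaip3 was above Rel in 3 of 7 libraries, Rel above Nfkb2 in 6 and Nfkb2 above Relb in 5. Tnf (3.40) and Bcl3 (2.16) were the lowest, with Relb above Tnf in 7 of 7 libraries and Tnf above Bcl3 in 6. The choice of length mattered most for Nfkb1, whose merged exons span 12061 bases and whose principal transcript 4117. With principal transcript lengths the mean level of Nfkb1 was 42.0 CPM per kilobase, with its place in the order unchanged, and Rel moved below Relb and Nfkb2, while Tnfrsf1b was above Tnfrsf1a in 5 of 7 libraries.

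Several family genes are known to be targets of NF-kappaB themselves, and their promoters are shown for the sequences through which this feedback can run. RefSeq promoter entries for GRCm38.p6, from 250 bases before to 50 bases after a start site, were available for 8 of the 10 genes (not Nfkb1 and Relb). They were searched on both strands for the kappaB consensus of 10 bases, and matches shifted by 1 base or found on both strands at 1 place were counted as 1. A match was found for 4 of these 8 genes, at 4 places for Nfkb2, 2 for Tnfaip3 and 1 each for Rel and Bcl3, where 9.55% of all 27025 genes with an entry had at least 1 match. Nfkb2 had 3 entries and Tnfaip3 had 2, against 1 for each other gene with an entry, so more sequence was searched for them. The windows of Nfkb2 lie in entries of different start sites. Below, the match is in capitals within a window of 30 bases, written 5′ to 3′ along the strand of the gene, and that of Tnfaip3 matches on the other strand. 1 window is given for each gene except Nfkb2, for which the 3 matches that read along its own strand are given because it had the lowest P value of the family.
Nfkb2, chr19:46304688-46304717: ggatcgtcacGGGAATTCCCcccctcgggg
Nfkb2, chr19:46304716-46304745: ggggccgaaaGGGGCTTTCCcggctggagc
Nfkb2, chr19:46305695-46305724: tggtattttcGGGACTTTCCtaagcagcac
Rel, chr11:23771042-23771071: cgtaagcagcGGGAAATCCCcccccctccc
Tnfaip3, chr10:19015403-19015432: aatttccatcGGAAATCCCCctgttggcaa
Bcl3, chr7:19822734-19822763: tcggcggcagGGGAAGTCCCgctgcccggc
A match in these letters is a description of the sequence, and no binding was measured. The genes with a match included Nfkb2 and Bcl3, whose groups did not overlap, and Rel and Tnfaip3, whose groups did.

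The rest of the pathway was described by 7 lists of genes. In each list no gene passed an adjusted P below 0.05 in edgeR, and the median log2 fold change over all 15257 tested genes was -0.006. The receptor-proximal parts had medians near that of all genes. Of the 21 genes of the TNF receptor complex and its death branch, 0 were higher and 2 lower inside at an unadjusted P below 0.05, where 5.76% and 3.79% of all genes were (median -0.07). The 95% interval lay wholly between -1 and 1 for 19 of the 21. This held for 55.1% of all tested genes and for 88.9% of those with a mean of at least 10 CPM. The lower genes were Traf5 and Tab2. Traf5, an adaptor of TNF family receptors, was at 9.34, 12.8 and 12.6 CPM inside and at 15, 15.3, 17.5 and 18.3 CPM outside (log2 fold change -0.51 ± 0.22 SE, edgeR adjusted P = 0.484). Adam17, the protease that sheds TNF, was at 272.9 to 341.2 CPM inside and at 234.7 to 364.4 CPM outside (log2 fold change 0.085 ± 0.16 SE, edgeR adjusted P = 0.929).

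Of the 12 genes of IKK kinases and IkB proteins, 1 was higher and 0 lower at an unadjusted P below 0.05 (median -0.09). Over all tested genes these shares were 5.76% and 3.79%. The kinases of the canonical complex and NIK lay close to 0: the log2 fold change was 0.13 ± 0.12 (SE) for Ikbkb, -0.17 ± 0.12 for Chuk, -0.033 ± 0.27 for Ikbkg and -0.025 ± 0.17 for Map3k14, with edgeR adjusted P values of 0.758 or more. Nfkbia, which encodes IkBalpha and is itself a target that responds rapidly to NF-kappaB, was at 119.0, 132.6 and 130.0 CPM inside and at 139.2, 127.1, 105.9 and 105.1 CPM outside. Its groups overlapped (log2 fold change 0.093 ± 0.13 SE, edgeR adjusted P = 0.902). The exception was Ikbke, a kinase related to IKK that acts beside TBK1 in interferon induction. It was at 7.34, 5.41 and 7.04 CPM inside and at 0.0, 0.400, 0.0402 and 1.26 CPM outside the graft, so that the groups were far apart. Its log2 fold change was 3.92 ± 1.03 (SE) with an adjusted P of 0.174 in edgeR and 0.0546 in voomWithQualityWeights, whereas DESeq2 (adjusted P = 0.00376), edgeR with legacy=FALSE (0.0102) and edgeR without the filter on low counts (0.0164) called it. Without outside graft 4, its highest outside library, the log2 fold change was 5.42 (edgeR adjusted P = 0.131). The 5 tested A20 partners had a median of 0.02, with 5 of 5 intervals between -1 and 1. Such intervals were found for 55.1% of all tested genes and 88.9% of those with a mean of at least 10 CPM. The 8 proteins that bind Tnf mRNA had a median of -0.16, none with an unadjusted P below 0.05, where 9.55% of all tested genes were. Their summed level was 678.8 to 711.7 CPM inside and 746.9 to 817.9 CPM outside. Among them Zfp36, which encodes the decay factor tristetraprolin, was at 128.2 to 193.8 CPM inside and 135.4 to 199.8 CPM outside (log2 fold change -0.073 ± 0.17 SE, edgeR adjusted P = 0.947).

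Textbook target genes of NF-kappaB had the highest median of the 7 lists. Of 25 genes, 21 were tested, and Cxcl1, Cxcl2, Ptgs2 and Saa3 were too low. The median log2 fold change was 0.81, with 18 genes above and 3 below 0, and 8 of 21 had an unadjusted P below 0.05 and a higher level inside, where 5.76% of all tested genes did. Their summed level was 2149.0, 2304.7 and 2425.8 CPM inside and 1297.8, 1417.5, 1160.9 and 1306.5 CPM outside, without overlap. Other lists were higher inside as well: the median log2 fold change was 0.72 for the immediate early genes, 3.36 for the markers of border-associated macrophages, 2.44 for those of monocytes and 5.96 for those of neutrophils, and their part in the levels of the target genes was not tested. The size of the difference varied among the targets. Cxcl10, a chemokine that interferons also induce, was at 23.1, 49.3 and 20.1 CPM inside and at 0.0, 2.85, 2.94 and 3.32 CPM outside (log2 fold change 3.74 ± 0.77 SE, edgeR adjusted P = 0.0933), and was called without outside graft 1, its lowest library (3.34, edgeR adjusted P = 0.0400). Lcn2, which neutrophils also express, was at 376.7, 30.8 and 729.4 CPM inside and at 0.0, 0.0445, 26.3 and 0.0810 CPM outside (log2 fold change 5.81 ± 1.59 SE, edgeR adjusted P = 0.197). Its size rested on outside graft 3, without which the log2 fold change was 12.86 and the gene was called (edgeR adjusted P = 0.0414), and it was 8.31 in voomWithQualityWeights (adjusted P = 0.428). Its libraries stood in the same order as the neutrophil sums within the inside group, and outside graft 3 was the highest of the outside group for both. Their part in the level of Lcn2 was not tested. Ccl5 was at 1.53, 10.4 and 13.0 CPM inside and 1.6, 3.96, 0.885 and 1.21 CPM outside (log2 fold change 2.12 ± 0.72 SE, edgeR adjusted P = 0.330).

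The 3 of 21 targets that voomWithQualityWeights called, at an adjusted P below 0.05 that 0.492% of all genes passed, are named here after their values were seen. Cd83, a surface protein of activated antigen-presenting cells, was at 424.3, 512.9 and 399.5 CPM inside and at 278.4, 296.5, 191.7 and 248.8 CPM outside the graft (log2 fold change 0.81 ± 0.16 SE, adjusted P = 0.0907 in edgeR and 0.0374 in voomWithQualityWeights). Tlr2, a receptor for bacterial lipoproteins, was at 330.0, 406.5 and 362.3 CPM inside and at 250.8, 244.5, 213.3 and 234.5 CPM outside (0.64 ± 0.11 SE, adjusted P = 0.0728 in edgeR and 0.0367 in voomWithQualityWeights). Vcam1, an adhesion molecule, was at 33.0, 28.0 and 39.3 CPM inside and at 17.7, 5.83, 10.0 and 8.18 CPM outside (1.68 ± 0.34 SE, adjusted P = 0.0919 in edgeR and 0.0172 in voomWithQualityWeights). The inside libraries lay above the outside libraries for all 3 genes, as they did for 5.65% of all tested genes. Within the inside group, Cd83 and Tlr2 were highest in inside graft 2, where the neutrophil sum was the lowest, whereas Vcam1 was lowest there and stood in the same order as the neutrophil sums. The part of other cells in these levels was not tested. On the other side, Il6 was at 12.3, 9.76 and 4.63 CPM inside and at 8.91, 16.4, 14.6 and 16.3 CPM outside (-0.66 ± 0.36 SE, edgeR adjusted P = 0.625), and Icam1 had a log2 fold change of -0.002 ± 0.12 (SE, edgeR adjusted P = 0.998).

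**Figure D5:**
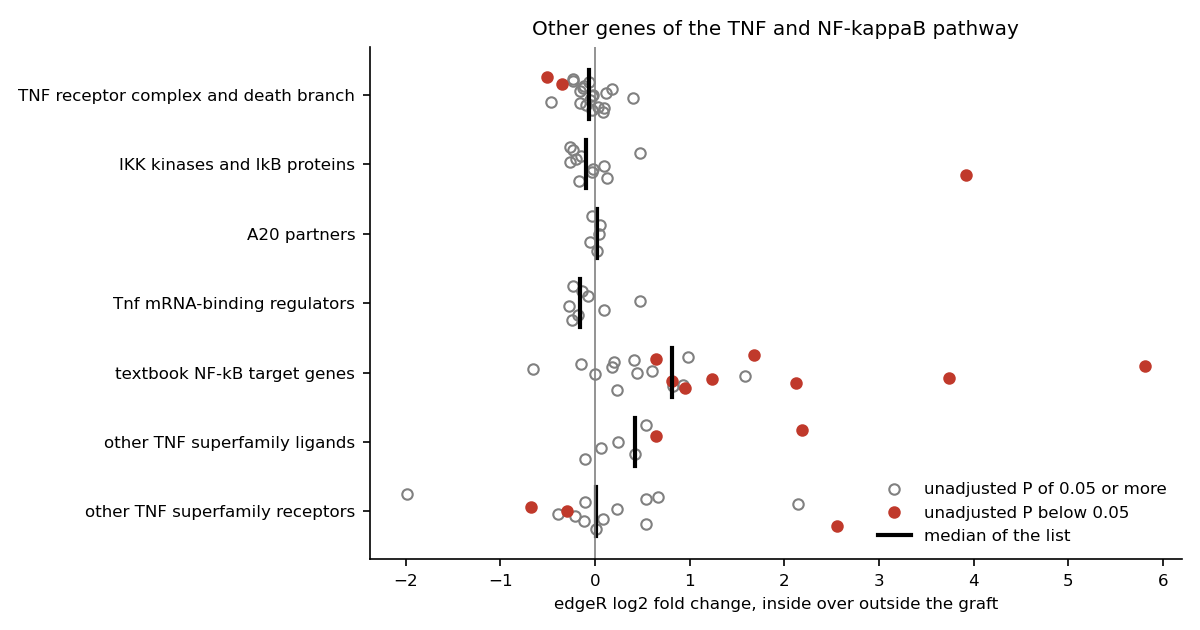
Log2 fold change from edgeR, inside over outside the graft, of every tested gene in 7 lists of the pathway, with filled red circles for an unadjusted P below 0.05, open circles for the others and a black line at the median of each list. The medians run from -0.16 for the proteins that bind Tnf mRNA to 0.81 for the target genes.

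Of 16 other ligands of the TNF superfamily, 7 were tested, with a median of 0.42 and 2 genes higher at an unadjusted P below 0.05, where 5.76% of all tested genes were. Tnfsf8, the ligand of CD30, was at 24.7, 34.9 and 16.5 CPM inside and at 2.99, 6.89, 2.17 and 10.1 CPM outside (log2 fold change 2.19 ± 0.49 SE, edgeR adjusted P = 0.117, DESeq2 adjusted P = 0.000668). Tnfsf13b, which encodes the B cell survival factor BAFF, was at 49.7, 57.1 and 57.9 CPM inside and at 37.0, 40.3, 30.1 and 33.3 CPM outside (0.64 ± 0.15 SE, edgeR adjusted P = 0.130, DESeq2 adjusted P = 0.00544). The inside libraries lay above the outside libraries for both, as they did for 5.65% of all tested genes. Lta, which encodes lymphotoxin alpha, the other ligand of TNFR1 and TNFR2, had 0 counts in all 7 libraries, which allows up to 3 counts in each. Ltb, its partner in the ligand of the lymphotoxin beta receptor, was at 3.55 to 5.30 CPM inside and 3.16 to 7.26 CPM outside (-0.11 ± 0.42 SE, edgeR adjusted P = 0.974).

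Of 24 other receptors of the superfamily, 15 were tested, with a median of 0.01, and 1 was higher (Cd40) and 2 were lower (Tnfrsf13b and Tnfrsf17) inside at an unadjusted P below 0.05, where 5.76% and 3.79% of all tested genes were. Ltbr, a receptor that feeds the non-canonical branch, was at 100.4, 111.5 and 83.6 CPM inside and at 119.3, 109.0, 91.7 and 107.6 CPM outside, and the groups overlapped (log2 fold change -0.12 ± 0.14 SE, edgeR adjusted P = 0.873). Cd40, another receptor of that kind, was at 0.393, 9.28 and 2.91 CPM inside and at 0.0, 0.667, 0.966 and 1.17 CPM outside. Inside graft 2 was far above the rest and inside graft 1 lay within the outside range (log2 fold change 2.56 ± 1.12 SE, edgeR adjusted P = 0.507), and without inside graft 2 the value fell to 1.22. Of the receptors used for the sort, Itgam (CD11b) was at 310.9 to 350.8 CPM inside and 259.6 to 389.4 CPM outside, and Ptprc (CD45) at 530.3 to 567.1 CPM inside and 353.0 to 476.6 CPM outside (log2 fold change 0.36 ± 0.12 SE, edgeR adjusted P = 0.337). Cx3cr1, a microglial receptor, was at 6195.1 to 6914.9 CPM inside and 6952.8 to 8273.6 CPM outside (-0.19 ± 0.08 SE, edgeR adjusted P = 0.496).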

How the data were processed

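RNA-seq of sorted microglia was analysed for 7 libraries, grouped by their labels into 3 from inside and 4 from outside the graft. By the methods of the study and the file header, the authors amplified cDNA from low-input RNA, sequenced single reads, aligned them with STAR 2.7.2a to the GENCODE M21 genome and annotation (GRCm38.p6), and deposited raw counts per gene name made with featureCounts 1.6.2, without use of strand, with reads over several genes given to the largest overlap and reads aligned to several places left out. All library columns were used. Since reads were amplified and carry no molecular identifiers, the upper limit on the counts of the undetected Lta covers counting error only. The intervals of fold changes also include the spread between libraries.

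From these counts, 15257 genes passed filterByExpr by group and were normalized with TMM, and CPM uses these factors. Inside and outside were compared with edgeR 4.0.16 (glmQLFit and glmQLFTest, robust=FALSE) in R 4.3.3, with Benjamini-Hochberg adjustment over all tested genes and a threshold of 0.05. Standard errors and intervals are those implied by the F statistic. The study's voomWithQualityWeights (limma 3.58.1) is given beside it, and DESeq2 1.42.0, other filters, normalizations and thresholds, a replicate block and each library left out were alternatives. Ratios and shares divide counts by the exon length of the counts table, with principal transcript length added after seeing the data, and ratios were compared with an exact permutation test (SciPy 1.17.1). Scripts were tested on simulated data. No 2 replicates were alike within sampling noise. The family, the lists and the tests were chosen with earlier results of these data known. Named genes were the family, in each pathway list the 3 tested genes farthest from a log2 fold change of 0, and 14 set ones (Nfkbia, Ikbkb, Ikbkg, Chuk, Map3k14, Adam17, Zfp36, Lta, Ltb, Ltbr, Cd40, Itgam, Ptprc and Cx3cr1). Others are named for a low P value or a small count after their values were seen, as were Il6 and Icam1.

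1 marker list is not reported here. Other lists without a result in the text above were the marker lists of neurons (3.20 to 6.07 CPM in sum inside and 3.11 to 10.9 outside), astrocytes (247.5 to 291.0 and 325.0 to 351.6), oligodendrocytes (155.4 to 159.3 and 154.8 to 165.4) and endothelial cells (30.7 to 40.4 and 37.5 to 61.2). Named genes without a value in the text above had edgeR adjusted P values of 0.586 or more, and were Fadd, Mlkl, Nfkbiz, Nfkbib, Tnip1, Rnf11, Tax1bp1, Zc3h12a, Rc3h2, Elavl1, Tnfsf9, Tnfrsf18 and Tnfrsf8.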

Additional observations from a re-analysis of the deposited data

Results flagged for a closer look

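Among 58 values checked for an outlying library in the outside group, 7 had 1 library far from the other 3 by Dixon's criterion, where chance gives about 1 in 20, or 2.9. Outside graft 1 was far from the others for 4 of these: the first principal component (117, others 5.34 to 17.5), Cxcl10 (0.0 CPM, others 2.85 to 3.32 CPM), the summed immediate early genes (577.4 CPM, others 674.7 to 694.4 CPM) and the summed oligodendrocyte markers (154.8 CPM, others 163.8 to 165.4 CPM). Outside graft 3 was far above the others for the summed neutrophil markers (202.7 CPM, others 0.311 to 18.3 CPM) and for Lcn2 (26.3 CPM, others 0.0 to 0.0810 CPM). Outside graft 4 was far above the others for Tnip1, which encodes an A20 partner (29.4 CPM, others 19.3 to 20.2 CPM). None of the 10 family genes met this criterion, although Tnf and Bcl3 were both lowest in outside graft 1.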

How the results depend on the processing

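No family gene was called under any alternative except DESeq2, which called 1 (Nfkb2). Over all genes, the 15 calls became 420 with DESeq2 (320 higher inside), 366 without the filter, 247 with legacy=FALSE in edgeR, 92 with a minimum of 10 counts per library, 75 with voomWithQualityWeights and 0 at an adjusted P below 0.01. With each library left out they ran from 0 to 73, being 0 when inside graft 3 or outside graft 4 was omitted, 4 when outside graft 2 was and 73 when inside graft 2 was, and the family genes called remained at 0. The cause was not tested. Deviations from the group mean were weakly correlated between same-numbered libraries (-0.0328, 0.0745 and 0.0617) and between differently numbered ones (-0.129 to 0.0658). This cannot show whether same-numbered libraries came from the same mouse. A replicate block was fitted without outside graft 4, which has no inside library of the same number. It gave 43 calls, none in the family, with log2 fold changes of 2.08 for Bcl3, 5.96 for Ikbke and 2.76 for Tnfsf8. It called Tnfsf8 (edgeR adjusted P = 0.0302). Without that library and without the block, the log2 fold change was 1.34 for Bcl3 and 5.42 for Ikbke. Beside the calls given with the genes, edgeR with legacy=FALSE and without the filter called Lcn2 (adjusted P = 0.0335 and 0.00239), Cxcl10 (0.00752 and 0.000322) and Tnfsf8 (0.0271 and 0.00239), and a minimum of 10 counts per library called Tnfsf8 (0.0447). Of the 43 named genes tested, 32 kept their direction under every alternative. The exceptions had log2 fold changes near 0 apart from Mlkl (0.40). Rel was at -0.02 and Itgam at -0.035 with voomWithQualityWeights. Ltb was at 0.0096 with limma-voom and 0.23 with quality weights. With the block, Ikbkg was at 0.10, Map3k14 at 0.061 and Zfp36 at 0.0057. With each library left out, the log2 fold change ran from -0.069 to 0.23 for Rel, -0.18 to 0.17 for Ikbkg, -0.11 to 0.079 for Map3k14, -0.011 to 0.20 for Adam17, -0.23 to 0.069 for Zfp36, -0.27 to 0.14 for Ltb, -0.047 to 0.14 for Itgam, -0.094 to 0.75 for Mlkl, -0.0057 to 0.22 for Tnip1, -0.082 to 0.013 for Rnf11 and -0.00049 to 0.13 for Tax1bp1. The log2 difference of the receptor ratio ran from -0.18 to 0.11. That of the non-canonical to canonical ratio was 0.73 without length and with principal transcript length. The intervals of Tnf and Bcl3, the genes with the lowest counts, were the widest of the family, and the SE of Bcl3 was 0.83 with and 0.33 without outside graft 1.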
